A study of Mus musculus with 4 samples.

Results

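The genes described here carry antigen presentation by class I molecules of the major histocompatibility complex (MHC), together with the proteasome that supplies its peptides. A gene was included if it was annotated as protein coding and was either 1 of 13 named class I genes or matched the proteasome gene names (Psma to Psmg followed by a digit). The rule found 63 of the 54532 annotated genes, made up of 13 class I genes, 5 immunoproteasome genes (Psmb8, Psmb9, Psmb10, Psme1 and Psme2) and 45 other genes with proteasome names. The rule itself uses no measured value. Among the 45, 41 encode canonical subunits, regulators or assembly chaperones of the proteasome, 3 encode other forms (Psma8, Psmb11 and Psme2b), and Psmc3ip matched by name alone: it is named for a partner of Psmc3 and is not a proteasome subunit.

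The 4 libraries were bulk RNA sequencing of mouse tumour-associated macrophages sorted from glioblastoma xenografts as CD45+, Gr1-, CD11b+ and DAPI- cells. MK-8931, also called verubecestat, blocks BACE1, the beta-secretase; it was given for 2 libraries, and 2 others are controls, which the protocol text calls vehicle treated. The strain entry says only that the animals carried glioblastoma, so the host's strain, age, genotype and class I alleles are unknown here. The protocol entries speak of GSCs (glioma stem cells) exposed for 3 days, but cell type and design both give sorted macrophages, which leaves the route of treatment unclear. The comparison asks what the inhibitor changed in macrophage gene expression. No label ties a library to its own animal, and the p-values therefore reflect sample-to-sample spread that could be technical.

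Class I molecules are built from a heavy chain and beta-2 microglobulin and display short peptides on the cell surface to CD8 T cells. The peptides are cut mostly by the proteasome, carried into the endoplasmic reticulum by the transporter TAP, trimmed by the aminopeptidase Erap1 and loaded with the help of tapasin. Interferon gamma is known to raise the heavy chains, TAP and 3 inducible catalytic subunits of the proteasome, which then take the place of the constitutive ones. In macrophages this machinery serves both the cell's own proteins and antigens taken up from outside.

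Library totals lay between 18257930 and 20179875 counts, and the 63 genes together took 0.949% to 1.06% of them. Macrophage markers were abundant in every library, with 8 genes summing to 8818 and 8668 CPM (the count scaled to library size) in MK-8931 and 8878 and 9954 CPM in control, and 1 of the 8, Itgam, passed the test as higher. Markers of other cells were not equal between the groups. The 8 neutrophil genes summed to 461 and 791 CPM in MK-8931 and to 84.1 and 79.9 CPM in control, and 6 of the 6 tested rose. The defining marker Ly6g, the Gr1 antigen of neutrophils, had 0 and 14 counts in MK-8931 and none in control. Of the monocyte genes, 3 of 5 rose. The natural killer cell list had 4 of its 5 genes at 0 in all 4 libraries. The part of these cells in the values below was not tested, and in bulk RNA fewer cells of a type and less RNA per cell cannot be told apart.

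Over all 13932 genes tested with edgeR's quasi-likelihood test, 139 genes (0.998%) had an adjusted p under 0.05, with 120 (0.861%) higher and 19 (0.136%) lower in MK-8931. None of the 62 tested class I and proteasome genes was among them. The smallest adjusted p among the 62 was 0.370. DESeq2 and limma-voom also called 0 of the 62. With edgeR, 1 (Psmb6) was called without the filter on low counts. That setting called 366 genes higher and 176 lower among the 23654 genes tested. The fold changes of Psmb6, Psmb7, Psmc1 and Psmd8, picked for being called without control 1, depended on which control was kept, as given below. In the fit over 13932 genes, 3 of the 62 had an unadjusted p under 0.05 (Psmb6 and Psmd8 lower, Psma8 higher). This is a smaller share than the 10.8% of all genes (6.53% higher and 4.25% lower). The 95% interval of the log2 fold change lay within 1 of zero on either side, which is within a 2-fold difference, for 58 of the 62 genes. For most of these genes the intervals therefore bound the difference between these libraries without showing that it is absent. They rest on sample-to-sample spread that could be technical, so no bound beyond these libraries follows.

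**Figure D1:**
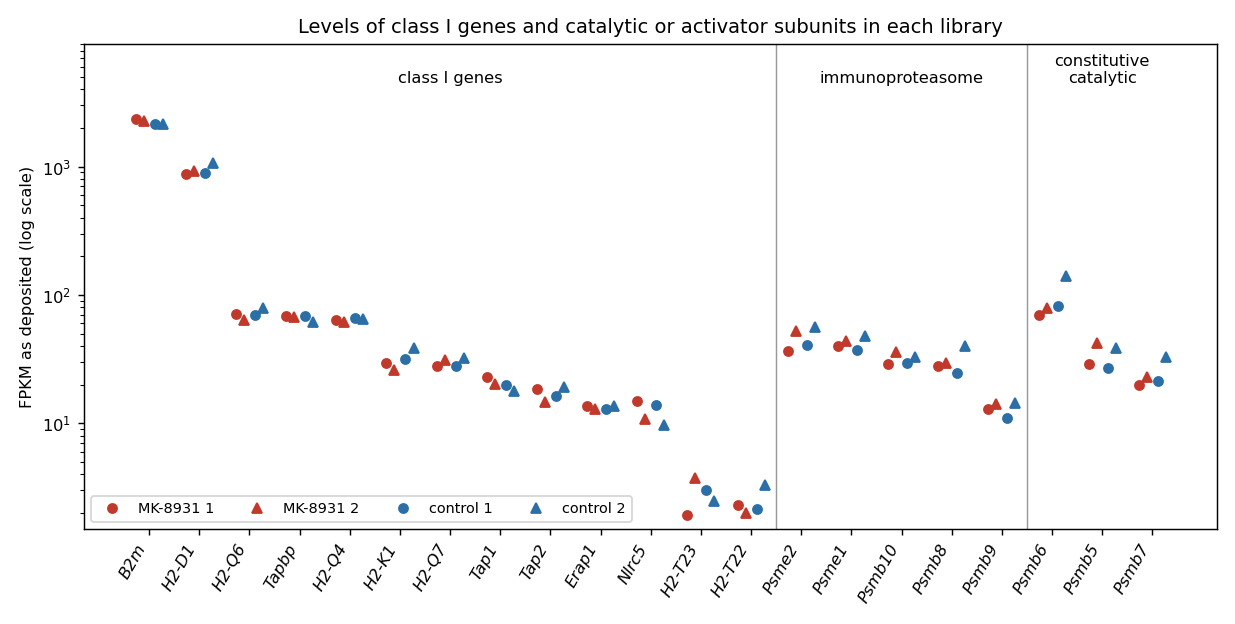
Deposited FPKM (log axis) of the 13 class I genes, the 5 immunoproteasome genes and the 3 constitutive catalytic subunits in each library, with MK-8931 in red left of control in blue, circles for replicate 1 and triangles for replicate 2. B2m and H2-D1 stand far above every other gene shown, and Psmb6 has its highest point in control 2.

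The class I genes were led by the light chain and a classical heavy chain. B2m, the beta-2 microglobulin gene at chr2:122147686-122153083 (GRCm38, plus strand), had 2344 and 2242 FPKM in MK-8931 and 2159 and 2147 FPKM in control. FPKM is the count scaled to gene length and library total, so it allows levels to be set side by side between genes. Both MK-8931 libraries lay above both controls, but the log2 fold change was 0.10 with a standard error (SE) of 0.12, and the adjusted p from edgeR was 0.850. H2-D1, a classical heavy chain at chr17:35262730-35267499 (plus strand), had 879 and 923 FPKM in MK-8931 and 888 and 1067 FPKM in control. The groups overlapped, and the log2 fold change was -0.11 ± 0.13 (SE).

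H2-K1, the other classical heavy chain, at chr17:33996017-34000333 on the minus strand, was far less abundant. It had 29.6 and 26.2 FPKM in MK-8931 and 31.7 and 38.5 FPKM in control. Both MK-8931 values lay below both controls, with a mean of 27.9 ± 2.45 FPKM in MK-8931 and 35.1 ± 4.797 FPKM in control (SD, n = 2 each). Its log2 fold change of -0.32 ± 0.15 (SE) did not pass the test (adjusted p = 0.513 with edgeR, 95% interval -0.67 to 0.02). Without control 2 the value was -0.18, and without control 1 it was -0.46, each with a single control left. The FPKM ratio of H2-D1 to H2-K1 was 29.7 and 35.3 in MK-8931 and 28.0 and 27.7 in control. Class I heavy chains are among the most variable genes between mouse strains, and the effect of the host's alleles on how many reads were assigned to each was not tested.

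The remaining heavy chains are non-classical, with less variation and more specialised partners. H2-Q6 and H2-Q7 encode Qa-2 molecules. H2-Q6 had 70.7 and 63.9 FPKM in MK-8931 and 70.2 and 78.4 FPKM in control. H2-Q7 had 28.0 and 31.2 FPKM in MK-8931 and 28.1 and 32.1 FPKM in control. Neither separated the groups, with log2 fold changes of -0.13 ± 0.13 and -0.01 ± 0.13 (SE). H2-Q4 was the only non-classical gene whose groups did not overlap, with 63.9 and 61.8 FPKM in MK-8931 and 66.5 and 65.0 FPKM in control, a log2 fold change of -0.06 ± 0.12 (SE). H2-T23, which encodes the Qa-1 molecule read by the inhibitory receptor of natural killer cells, had 1.94 and 3.75 FPKM in MK-8931 and 3.04 and 2.48 FPKM in control. H2-T22, whose product is bound by some gamma-delta T cells, had 2.33 and 1.99 FPKM in MK-8931 and 2.15 and 3.32 FPKM in control. For H2-T23 the replicates of each group lay further apart than the group means. For H2-T22 this held for the controls only. Several heavy chains resemble each other closely, and 34.5% of the 50-base stretches in H2-T22 transcripts, 32.0% in H2-Q6, 26.4% in H2-Q7 and 21.8% in H2-Q4 also occur in transcripts of another gene, so their counts are uncertain where the counting could split such reads.

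A stretch of sequence before the RefSeq start is shared, with few differences, by H2-D1, H2-K1, H2-Q6 and H2-Q7. It is printed because it shows what these genes have in common beyond their function. H2-T22 is printed beside them only for its match to the letters searched, and the bases around its match differ. In RefSeq promoter windows of the 250 bases before each start (GRCm38.p6), the letters GGGATTC, which form part of the kappa B motif known to be bound by NF-kappa B factors, were searched on both strands. They occurred in 5 of the 11 class I genes with an entry (H2-D1, H2-K1, H2-Q6, H2-Q7 and H2-T22) and in 2.54% of all 32851 windows. None of the 5 immunoproteasome genes and none of the 37 other proteasome genes with an entry held them. The 5 stretches of 30 bases follow, each 5′ to 3′ on the gene's strand with the match in capitals, in the order chr17:35262913-35262942 (plus strand), chr17:34000439-34000468 (minus), chr17:35424667-35424696 (plus), chr17:35439012-35439041 (plus) and chr17:36042905-36042934 (minus), and in H2-T22 the match is to the reverse complement. The stretch of H2-D1 lies inside the file's longer model of that gene, which starts further upstream than the RefSeq start.
H2-D1: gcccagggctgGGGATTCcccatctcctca
H2-K1: gcccagggctgGGGATTCcccatctccaca
H2-Q6: gcccatggctgGGGATTCcccatctcccca
H2-Q7: gcccatggctgGGGATTCccatctccccag
H2-T22: gtttcactttcGAATCCCcaacttctcttg
The match began 170, 110, 172, 132 and 181 bases before the RefSeq start of H2-D1, H2-K1, H2-Q6, H2-Q7 and H2-T22. A further RefSeq window of H2-K1, not printed, has the match at position -124 from its own start. The mean level over the 4 libraries was 939 FPKM for H2-D1, 31.5 FPKM for H2-K1 and 2.45 FPKM for H2-T22, so genes with these letters in the window differed widely in level. H2-Q4, with 64.3 FPKM, had no match in its window.

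The longer windows of H2-K1 (chr17:34000348-34000597, minus strand) and B2m (chr2:122147437-122147685, plus strand) show the surroundings for the heavy chain with the smallest p and for the light chain that pairs with it. Capitals mark GGGATTC in H2-K1 and, in B2m, a match to the reverse complement of CCAAT.
H2-K1: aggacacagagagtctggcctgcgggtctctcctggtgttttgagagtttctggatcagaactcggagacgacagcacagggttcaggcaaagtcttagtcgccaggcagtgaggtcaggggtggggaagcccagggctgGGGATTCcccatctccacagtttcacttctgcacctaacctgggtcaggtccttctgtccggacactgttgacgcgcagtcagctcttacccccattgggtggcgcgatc
B2m: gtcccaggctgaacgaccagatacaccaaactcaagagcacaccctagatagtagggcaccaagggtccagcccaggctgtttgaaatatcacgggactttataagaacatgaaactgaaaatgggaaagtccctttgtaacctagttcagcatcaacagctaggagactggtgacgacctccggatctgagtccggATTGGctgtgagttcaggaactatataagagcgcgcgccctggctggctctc
CCAAT, the box known to be bound by NF-Y, was searched on both strands in the same windows. It occurred in 10 of the 11 class I genes, in 1 of the 5 immunoproteasome genes, in 14 of the 37 other proteasome genes and in 33.8% of all windows. The immunoproteasome match, in Psmb9, and the match in Tap1 are the same bases, which lie between their starts. A gene counted if any of its windows matched, whereas the 33.8% is per window. A match is a description of these letters and not of binding.

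The genes that move and load peptides were at intermediate levels. Tap1 and Tap2 encode the paired chains of the peptide transporter. Tap1, at chr17:34187553-34197225, had 22.7 and 20.4 FPKM in MK-8931 and 20.01 and 17.9 FPKM in control, with both MK-8931 libraries above both controls. Its log2 fold change was 0.19 ± 0.14 (SE), the highest of the 13 class I genes, and did not pass the test (adjusted p = 0.708 with edgeR). Tap2 had 18.3 and 14.7 FPKM in MK-8931 and 16.4 and 19.3 FPKM in control, a log2 fold change of -0.11 ± 0.16 (SE). Tapbp, which encodes tapasin, had 68.0 and 67.7 FPKM in MK-8931 and 67.9 and 62.0 FPKM in control. Erap1, the trimming aminopeptidase, had 13.6 and 12.9 FPKM in MK-8931 and 12.95 and 13.7 FPKM in control. Nlrc5, the transactivator of class I genes, had 14.8 and 10.9 FPKM in MK-8931 and 13.8 and 9.74 FPKM in control. Replicates of Nlrc5 lay further apart than the group means, which were 12.8 ± 2.75 FPKM in MK-8931 and 11.8 ± 2.88 FPKM in control (SD, n = 2 each).

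Taken over the 13 class I genes, the median log2 fold change was -0.01, beside -0.003 over all genes tested. Of the 13, 6 had a fold change above zero and 7 below. Both MK-8931 libraries lay above both controls in 2 of the 13 (B2m and Tap1) and below them in 2 (H2-Q4 and H2-K1). Among all genes tested 21.2% lay above and 20.0% below in this way, 41.2% in all, so the 4 of 13 are no larger a share than that.

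**Figure D2:**
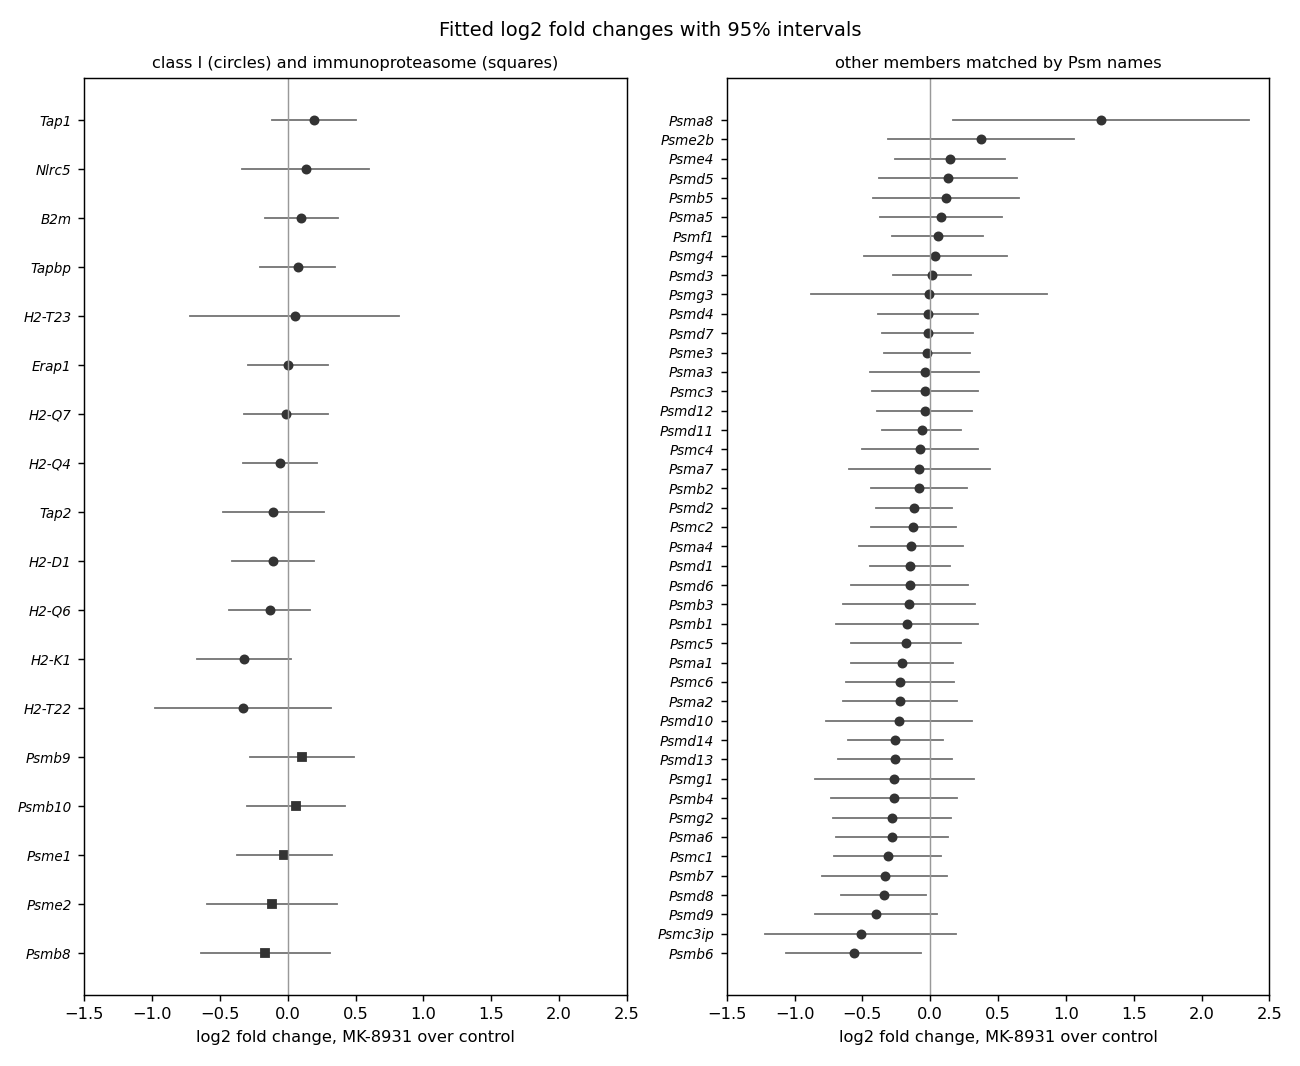
Fitted log2 fold change of each tested gene, MK-8931 over control, with its 95% interval as a line. The 18 class I and immunoproteasome genes lie within 0.34 of zero, and most of the 44 other genes lie to the left of zero, with Psma8 alone above 1.

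None of the 5 immunoproteasome genes passed the test. Psmb8, Psmb9 and Psmb10 encode the 3 inducible catalytic subunits. Psmb8 had 27.8 and 29.5 FPKM in MK-8931 and 24.8 and 39.8 FPKM in control, so the controls enclosed both treated libraries. Psmb9, at chr17:34181988-34187764 on the minus strand, had 12.9 and 14.1 FPKM in MK-8931 and 11.02 and 14.3 FPKM in control. Psmb10 had 29.1 and 35.8 FPKM in MK-8931 and 29.7 and 33.0 FPKM in control. In log2 fold change these were -0.16 ± 0.21, 0.10 ± 0.17 and 0.06 ± 0.16 (SE). Psme1 and Psme2 encode the alpha and beta subunits of the activator that caps the core particle. Psme1 had 40.1 and 43.5 FPKM in MK-8931 and 37.5 and 48.1 FPKM in control. Psme2 had 36.6 and 52.1 FPKM in MK-8931 and 40.5 and 56.5 FPKM in control, and 28.3% of its 50-base stretches also occur in transcripts of Psme2b. All 5 genes overlapped between the groups, where 41.2% of all genes did not, and their adjusted p with edgeR lay between 0.861 and 0.979.

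Psmb8, Psmb9, Tap1 and Tap2 lie next to each other in the MHC on chromosome 17, and Psmb9 and Tap1 face away from each other with 225 bases between their RefSeq starts. In the file's gene models the 2 genes overlap by 212 bases on opposite strands. No source used here says whether the counting used strand, so reads in that overlap cannot be told apart.

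Each inducible catalytic subunit was also set against the constitutive subunit whose place it takes, as a ratio of FPKM within a library. Psmb9 over Psmb6, the pair with caspase-like activity in its constitutive form, was 0.184 and 0.179 in MK-8931 and 0.133 and 0.103 in control. The groups did not overlap, and the log2 difference was 0.63. In the fit, the log2 fold change was 0.10 for Psmb9 and -0.56 for Psmb6. Psmb10 over Psmb7, the pair with trypsin-like activity, was 1.47 and 1.57 in MK-8931 and 1.39 and 1.01 in control. These groups did not overlap either, and the log2 difference was 0.36. Psmb8 over Psmb5, the pair with chymotrypsin-like activity, was 0.964 and 0.703 in MK-8931 and 0.922 and 1.03 in control, a log2 difference of -0.24. The two-sided exact permutation p was 0.333 for the first and second ratio and 0.667 for the third, or 0.5, 0.5 and 0.667 adjusted over the 3 ratios. With 2 libraries against 2 the smallest p possible is 0.333, so this design cannot pass 0.05. Without control 2 the log2 differences were 0.45 for Psmb9 over Psmb6, 0.13 for Psmb10 over Psmb7 and -0.16 for Psmb8 over Psmb5. Without control 1 they were 0.82, 0.60 and -0.32 in the same order.

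**Figure D3:**
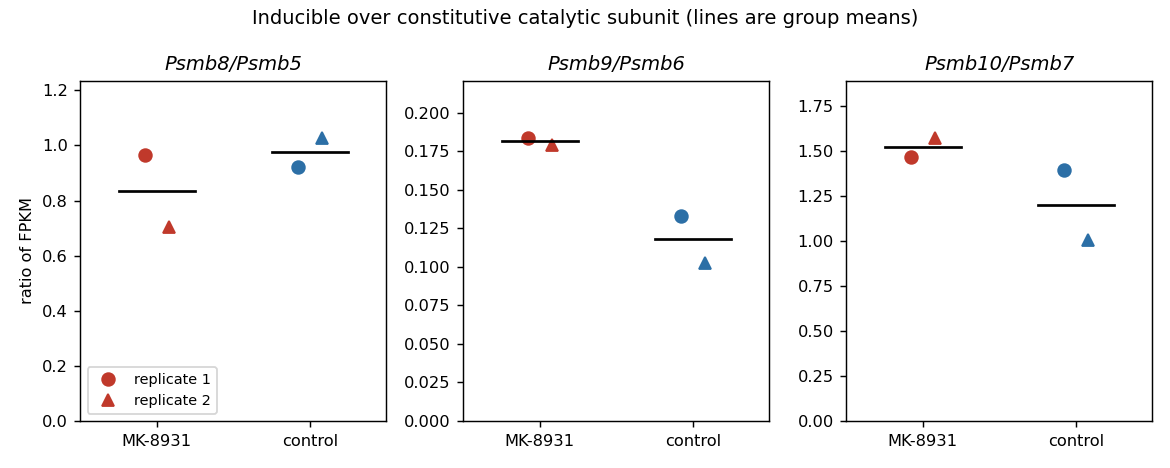
Ratio of FPKM of each inducible catalytic subunit to its constitutive counterpart in each library (MK-8931 in red left of control in blue, circle for replicate 1, triangle for replicate 2, line for the group mean, axes from 0). Psmb9/Psmb6 is higher in both MK-8931 libraries, 0.184 and 0.179, than in both controls, 0.133 and 0.103.

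Psmb6, the constitutive catalytic subunit at chr11:70525367-70527858 (plus strand), had the most negative fold change of all 62 tested genes. It had 70.2 and 78.8 FPKM in MK-8931 and 82.6 and 139 FPKM in control. Both MK-8931 libraries lay below both controls, and control 2 stood far above the other 3 libraries. The log2 fold change was -0.56 ± 0.22 (SE), with an unadjusted p of 0.0304 and an adjusted p of 0.379 with edgeR. Without control 2 the value was -0.15, and without control 1 it was -0.90, each with a single control left. With all 4 libraries and no filter on low counts, Psmb6 passed the test (log2 fold change -0.59, adjusted p = 0.00589 with edgeR). Psmb7 had 19.8 and 22.8 FPKM in MK-8931 and 21.3 and 32.8 FPKM in control, a log2 fold change of -0.34 ± 0.20 (SE). Without control 2 it was -0.001, and without control 1 it was -0.62. The model of Psmb7 overlaps that of Nek6 by 6571 bases on the opposite strand. Over all libraries Nek6 had 14836 counts and Psmb7 had 6333. Whether reads of Nek6 were counted for Psmb7 was not tested. Psmb5 had 28.8 and 41.9 FPKM in MK-8931 and 26.9 and 38.7 FPKM in control, a log2 fold change of 0.12 ± 0.24 (SE), and 54.1% of its 50-base stretches occur in other transcripts.

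The 11 structural subunits of the core particle each had their highest level in control 2. In the alpha ring, Psma6 was the most abundant, with 72.8 and 88.4 FPKM in MK-8931 and 82.1 and 115 FPKM in control, and it also had the lowest fold change of the 7 (log2 -0.28 ± 0.18, SE). Psma5 had the highest, 0.08 ± 0.20 (SE). In the beta ring, Psmb2 was the most abundant of the non-catalytic subunits, with 59.7 and 74.3 FPKM in MK-8931 and 67.1 and 76.0 FPKM in control, and Psmb4 had the lowest fold change of these (log2 -0.27 ± 0.21, SE). All 7 alpha and 7 beta subunits were higher in control 2 than in control 1 and higher in MK-8931 2 than in MK-8931 1.

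The regulatory particle unfolds ubiquitin-tagged proteins and feeds them into the core. Its 6 ATPases all had fold changes below zero. Psmc1, the most abundant of them, had 60.7 and 67.2 FPKM in MK-8931 and 66.1 and 93.9 FPKM in control, a log2 fold change of -0.31 ± 0.17 (SE). Without control 2 it was -0.05, and without control 1 it was -0.55, each with a single control left. Psmc3 had the value nearest zero, -0.04 ± 0.17 (SE). With all 4 libraries none of the 6 passed the test.

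Among the 11 non-ATPase subunits, Psmd8 was the most abundant proteasome gene in the set and had the smallest adjusted p of the 11. It had 109 and 115 FPKM in MK-8931 and 128 and 158 FPKM in control, with no overlap. The log2 fold change was -0.34 ± 0.14 (SE), with an unadjusted p of 0.0355 and an adjusted p of 0.404 with edgeR. Without control 2 it was -0.19, and without control 1 it was -0.49, each with a single control left. Psmd3 was the only 1 of the 11 above zero, at 0.01 ± 0.13 (SE). Psmd1, Psmd2, Psmd8, Psmd11 and Psmd14 lay below both controls in both MK-8931 libraries, 5 of the 11 beside 20.0% of all genes, with differences as small as that of Psmd11, which had 14.1 and 14.4 FPKM in MK-8931 and 14.9 and 15.1 FPKM in control.

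Assembly chaperones help to build the particles and regulators bind to them. Of the regulatory particle chaperones, Psmd9 had 2.95 and 3.24 FPKM in MK-8931 and 3.46 and 4.77 FPKM in control (log2 fold change -0.40 ± 0.20, SE), and Psmd5 had 3.02 and 4.57 FPKM in MK-8931 and 3.19 and 3.79 FPKM in control (0.13 ± 0.22, SE). Of the core particle chaperones, Psmg4 was the most abundant, with 18.4 and 21.2 FPKM in MK-8931 and 17.4 and 21.5 FPKM in control, and Psmg2 had 14.0 and 15.1 FPKM in MK-8931 and 19.1 and 16.5 FPKM in control. Both MK-8931 values of Psmg2 lay below both controls, and control 1, not control 2, was its highest library. Psme3, the nuclear activator, had 34.4 and 39.0 FPKM in MK-8931 and 35.0 and 40.0 FPKM in control. Psme4, a large single-chain activator, had 11.2 and 9.13 FPKM in MK-8931 and 10.5 and 7.93 FPKM in control. Psmf1, an inhibitor of the core particle, differed by 0.05 ± 0.15 (SE) on the log2 scale.

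The genes for other forms were near the lower end. Psma8, the alpha subunit of the testis proteasome, had 48 and 68 counts in MK-8931 and 23 and 26 counts in control, and both MK-8931 libraries lay above both controls. Its log2 fold change was 1.26 ± 0.48 (SE), the highest of the 62, with an unadjusted p of 0.0284 and an adjusted p of 0.370 with edgeR. Its level was 1.44 and 2.17 FPKM in MK-8931 and 0.727 and 0.787 FPKM in control, against 28.1 to 89.6 FPKM for the mean of each alpha subunit of the general proteasome. Psmb11, the catalytic subunit of the thymus proteasome, had 15 and 3 counts in MK-8931 and none in control, and it was the 1 gene that failed the filter on low counts. A count of 0 allows up to 3 counts, or 0.163 and 0.149 CPM in control 1 and control 2, and covers counting error only. Psme2b, which shares 69.3% of its 50-base stretches with other genes, chiefly Psme2, had 203 and 119 counts in MK-8931 and 117 and 132 counts in control. Psmc3ip had 105 and 157 counts in MK-8931 and 153 and 227 counts in control.

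**Figure D4:**
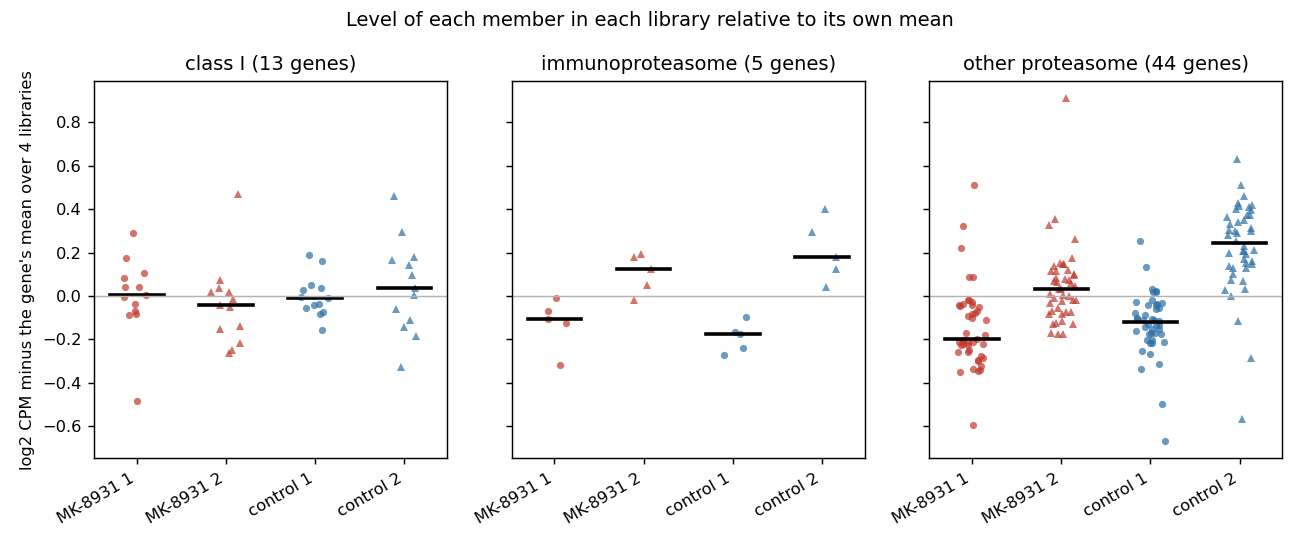
Level of each tested gene in each library as log2 CPM minus the gene's own mean over the 4 libraries, with a black line at the median. The medians of the 44 other proteasome genes were -0.20 and 0.03 in MK-8931 and -0.12 and 0.24 in control, and those of the 13 class I genes stayed within 0.05 of zero.

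Over the 44 tested genes outside the class I and immunoproteasome groups, the median log2 fold change was -0.13, and 35 of the 44 lay below zero, beside 50.4% of all genes. Without Psmc3ip, Psme2b and Psma8 the median was -0.14, with 34 of 41 below zero. Both MK-8931 libraries lay below both controls in 8 of the 44 and above them in 1, beside 20.0% and 21.2% of all genes. The fold changes of genes from one complex measured in the same libraries are not independent, so these counts describe the list and test nothing.

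The difference between the controls was larger than that between the groups. Control 2 exceeded control 1 in 42 of these 44 genes, in 5 of the 5 immunoproteasome genes and in 7 of the 13 class I genes, beside 48.7% of all genes. The median log2 ratio of control 2 to control 1 was 0.38 for the 44 genes, 0.37 for the immunoproteasome and 0.07 for class I. Between the treated libraries, MK-8931 2 exceeded MK-8931 1 in 37 of the 44, 5 of 5 and 3 of 13, beside 50.9% of all genes, with median log2 ratios of 0.19, 0.13 and -0.08. The 84 cytosolic ribosomal protein genes had larger ratios in the same direction, 0.37 for MK-8931 2 over MK-8931 1 and 0.46 for control 2 over control 1. Among all genes the third with the shortest models had medians of 0.13 for the treated pair and 0.17 for the control pair, and the third with the longest models had -0.09 and -0.15. The 62 tested members, split at the same lengths, had medians for the treated pair of 0.15 among short models (35 genes), 0.17 among middle ones (18 genes) and -0.08 among long ones (9 genes), and for the control pair of 0.39, 0.32 and 0.06. Among all genes with middle models the medians were 0.02 for the treated pair and 0.01 for the control pair.

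**Figure D5:**
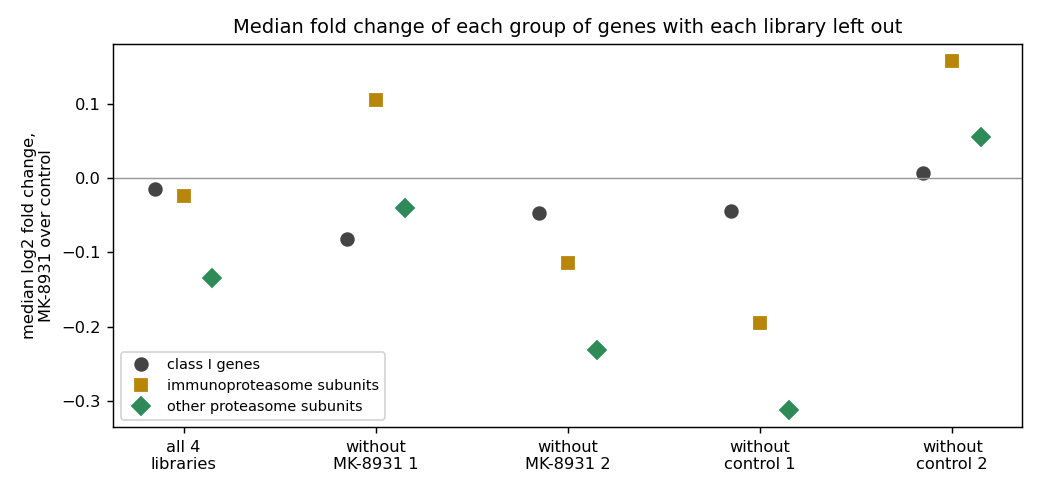
Median log2 fold change, MK-8931 over control, of the 13 class I genes (circles), the immunoproteasome genes (squares) and the other proteasome genes (diamonds) with all 4 libraries and with each library left out. The other proteasome genes are at -0.13 with all libraries, at -0.31 without control 1 and at 0.06 without control 2.

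The direction for the 44 genes depended on which control was kept. Without control 1 their median was -0.31, and without control 2 it was 0.06, with 16 of 45 genes below zero. Leaving out MK-8931 1 gave -0.04 and leaving out MK-8931 2 gave -0.23. The immunoproteasome median was -0.02 with all libraries, -0.20 without control 1 and 0.16 without control 2. The class I median was 0.01 without control 2. Across the 62 tested genes, 30 changed the sign of their fold change when control 2 was left out. Psmb6, Psmb7, Psmc1 and Psmd8 were picked because they were called without control 1. Their more negative log2 fold changes there than without control 2 are therefore not a separate result.

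Genes that control or assist the pathway were counted in 3 lists. Of 21 regulators of class I genes, such as interferon receptors and the factors downstream of them, 0 passed the test, and the median log2 fold change was 0.08. The smallest p belonged to Ifngr2, a chain of the interferon gamma receptor, with 123 and 133 CPM in MK-8931 and 93.9 and 94.99 CPM in control (log2 fold change 0.44 ± 0.13, SE, adjusted p = 0.209 with edgeR). At an unadjusted p under 0.05 there were 6 of the 21, beside 10.8% of all genes. Chosen after their values were seen, the other 5 were Ifngr1 (log2 fold change 0.34), Stat2 (0.43), Irf9 (0.34) and Irf2 (0.41) on the higher side and Rfx5 (-0.54) on the lower side.

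Of 21 tested genes for peptide loading, cytosolic trimming and related class I molecules, 0 passed, with a median of -0.05. Unadjusted p was under 0.05 for 2 of the 21, beside 10.8% of all genes. The smallest p belonged to Hspa5, the chaperone BiP of the endoplasmic reticulum, with 1267 and 1234 CPM in MK-8931 and 1437 and 1964 CPM in control (log2 fold change -0.44 ± 0.16, SE, adjusted p = 0.334 with edgeR). As for Psmb6, control 2 was its highest library. Of 22 tested proteasome regulators, shuttle factors and ubiquitin genes, 0 passed, with a median of -0.02. Here 2 of the 22 had an unadjusted p under 0.05. Zfand2a, which encodes a heat- and arsenite-inducible proteasome-binding protein, had the smallest p, with 163 and 129 CPM in MK-8931 and 214 and 230 CPM in control (log2 fold change -0.60 ± 0.15, SE, adjusted p = 0.126 with edgeR). Its groups did not overlap.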

How the data were processed

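The members and gene lists were chosen with earlier results of these data known. The deposited table holds raw counts per gene, which the authors made, per the file headers. It also holds FPKM values from the authors, per the file headers, which equal the count scaled by gene length and library total. CASAVA and mm9 appear in the submitters' processing notes, but 59 of the 63 genes have exactly the coordinates of GENCODE M21 (GRCm38), so coordinates are given as GRCm38. Which aligner, counter and strand setting were used is not given in the sources used here. Of the members, 33 overlap another annotated gene and 18 a protein-coding one. A further 4 columns of per-sample values were not used.

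Tests on the counts used edgeR 4.0.16 (R 4.3.3). The filter was filterByExpr at a minimum count of 10, scaling was by TMM, and the groups were compared by the robust quasi-likelihood F test (two-sided). P-values were adjusted by the Benjamini-Hochberg method over the 13932 genes that passed, with 0.05 as the threshold. CPM of single genes are TMM-scaled, overlap of groups was read on these CPM, and 95% intervals come from the fit. Summed CPM of marker genes and the CPM given for a count of 0 are scaled to library totals alone. The script was tested on simulated data. Chi-square per degree of freedom between replicates was 17.1 in MK-8931 and 29.7 in control, above sampling noise. Alternatives were library size alone, RLE factors, no filter, DESeq2 1.42.0, limma-voom (limma 3.58.1), non-robust dispersions, a replicate block and each library left out, and, chosen after seeing the data, the other proteasome genes without 3 that are not canonical. The ratios were also taken on CPM and with a pseudocount.

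Named genes were all class I and immunoproteasome genes, the constitutive catalytic subunits, the most abundant and the highest and lowest fold change in each other class by name (Psma, other Psmb, Psmc, Psmd, Psme3 with Psme4 and Psmf1, and Psmg), genes at the floor, and the smallest p of each pathway list. Others are marked or stand in a count. Promoter windows came from RefSeq (GRCm38.p6), where 53 of 63 members matched.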

Additional observations from a re-analysis of the deposited data

How the results depend on the processing

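Library size alone, RLE factors and non-robust dispersions kept every count of calls within 1.5 times the main one, and 0 class I or immunoproteasome genes were called under any setting. Over all genes, 366 were higher and 176 lower without the filter on low counts, 262 and 95 with DESeq2, 468 and 275 with the replicate block, and 30 were lower with limma-voom. Leaving out 1 library gave 85 to 520 higher and 10 to 243 lower. Among the other proteasome genes 1 was called without the filter (Psmb6, adjusted p = 0.00589) and 1 with the replicate block (Psmb6, adjusted p = 0.0450), and 0 to 4 with 1 library left out. The replicate numbers are not said to pair the samples; deviations of same-numbered samples correlated at 0.179 over 13731 genes, with only 2 pairs. The class I median lay between -0.082 and 0.0074, the immunoproteasome median between -0.20 and 0.16 and that of the other proteasome genes between -0.31 and 0.06 with 1 library left out. The cause of these shifts was not tested. With 1 library left out, 1 group has a single sample, assumed to vary like the other. With library size alone the medians of class I and immunoproteasome genes were 0.01 in each group of genes, on the other side of zero. Depth limits only Psmb11, Psma8 and the other genes with under 100 counts in a library.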
